A study of Mus musculus with 6 samples.

Results

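The energy shuttle of the heart muscle cell was followed here through 7 genes: Ckm, Ckmt2, Ckb, Slc6a8, Slc25a4, Slc25a5 and Ak1. They were chosen by name from the 46078 gene features of the count tables, together with every mm10 feature whose exons overlap theirs on the other strand. There were 2 such opposite features, A930016O22Rik at Ckm and 1700119I11Rik at Ckmt2, and the remaining 5 genes had no exon of another gene opposite to them. Heart muscle cells were isolated by perfusion and their poly-A RNA sequenced in 2 groups of 3 libraries each. The Acly_KD group carried a knockdown of Acly, the gene of ATP citrate lyase, made in mice in which Cas9 is driven by the Myh6 promoter of heart muscle cells. The control group is labelled wildtype. Whether the controls carried Cas9, how guides were delivered, the age of the animals and whether each library came from its own animal were not given in the sources used here. P-values below therefore describe the spread among these libraries, some of which may be technical. Library values are printed in the order of replicates 1 to 3.

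Heart muscle makes most of its ATP in mitochondria and spends it at the myofibrils and ion pumps. Creatine taken up by the transporter Slc6a8 is phosphorylated at the mitochondria by Ckmt2, and the phosphocreatine is turned back into ATP where it is spent by the dimeric cytosolic kinases Ckm (the muscle form) and Ckb (the brain form). Slc25a4 and Slc25a5 exchange ADP for ATP across the inner mitochondrial membrane, and Ak1, the cytosolic adenylate kinase, makes ATP and AMP from a pair of ADP molecules.

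At both kinases, nearly all reads were counted in the antisense feature. A930016O22Rik, a noncoding feature antisense to Ckm, held 44396 reads in Acly_KD and 48641 in control (sums of 3 libraries), while Ckm itself held 563 and 611. 1700119I11Rik, antisense to Ckmt2, held 15992 and 15176 reads, against 149 and 150 at Ckmt2. How the counting treated strand was not given in the sources used here. Across the tables, the 18.0% of nuclear features with exons opposite to another gene held 91.9% of the nuclear reads, which is why the counts are also read with strands swapped. In what follows, the reading of mRNA gives an opposite feature's reads to the gene it faces, and own-feature reads are those counted in the gene's own row. The reading is an assumption: the counts alone do not show whether the reads given to Ckm and Ckmt2 are their mRNA or transcripts of A930016O22Rik and 1700119I11Rik. Under it, own-feature reads can be wrong-strand copies of the mRNA or, at Ckm and Ckmt2, transcripts of the antisense gene, and these cannot be told apart.

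The shared exons show which pieces of creatine kinase mRNA could be read. Ckm (ENSMUSG00000030399, chromosome 7, 19404776 to 19422841, plus strand, mm10) shares 451 exonic bases with A930016O22Rik (chromosome 7, 19417466 to 19421417, minus strand). In the transcript of 8 exons, they are the first 115 bases of exon 6, the first 126 of exon 7 and the first 210 of exon 8. In exon 8, 176 of them are coding without the stop codon. The 34 that follow hold the stop codon and part of the 3′ UTR. Ckmt2 (ENSMUSG00000021622, chromosome 13, 91853387 to 91876885, minus strand) shares 84 coding bases of exon 4, out of 10 exons, with 1700119I11Rik (chromosome 13, 91861432 to 91862044, plus strand). The coding part of each exon follows from 5′ to 3′ on the mRNA strand, from the transcript sequences of GENCODE M21, with the bases shared with the opposite feature in capitals. They lie at chr7:19419439-19419562, chr7:19420107-19420296, chr7:19421208-19421383 and chr13:91861753-91861848.
Ckm exon 6: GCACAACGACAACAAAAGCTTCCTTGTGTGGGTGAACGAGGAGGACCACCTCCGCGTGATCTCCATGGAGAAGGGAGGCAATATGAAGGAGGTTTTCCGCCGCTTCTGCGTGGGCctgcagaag
Ckm exon 7: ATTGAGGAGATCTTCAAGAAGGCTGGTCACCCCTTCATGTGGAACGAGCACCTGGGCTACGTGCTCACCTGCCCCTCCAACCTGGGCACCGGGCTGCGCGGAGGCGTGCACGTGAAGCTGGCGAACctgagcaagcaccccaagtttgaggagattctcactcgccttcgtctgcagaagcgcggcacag
Ckm exon 8: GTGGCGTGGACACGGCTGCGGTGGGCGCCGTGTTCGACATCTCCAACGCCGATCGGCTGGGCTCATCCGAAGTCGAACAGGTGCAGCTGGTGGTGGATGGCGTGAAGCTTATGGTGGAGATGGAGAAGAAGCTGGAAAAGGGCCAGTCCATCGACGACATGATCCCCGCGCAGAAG
Ckmt2 exon 4: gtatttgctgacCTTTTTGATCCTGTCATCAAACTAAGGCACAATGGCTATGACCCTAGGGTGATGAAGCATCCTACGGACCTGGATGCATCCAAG

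How reads that lie only partly in these stretches were assigned was not tested. The other 2109 exonic bases of A930016O22Rik and 321 of 1700119I11Rik lie opposite to introns of the same genes. Since the stretches differ, levels of Ckm and Ckmt2 are compared between libraries and not with each other in this reading.

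**Figure D1:**
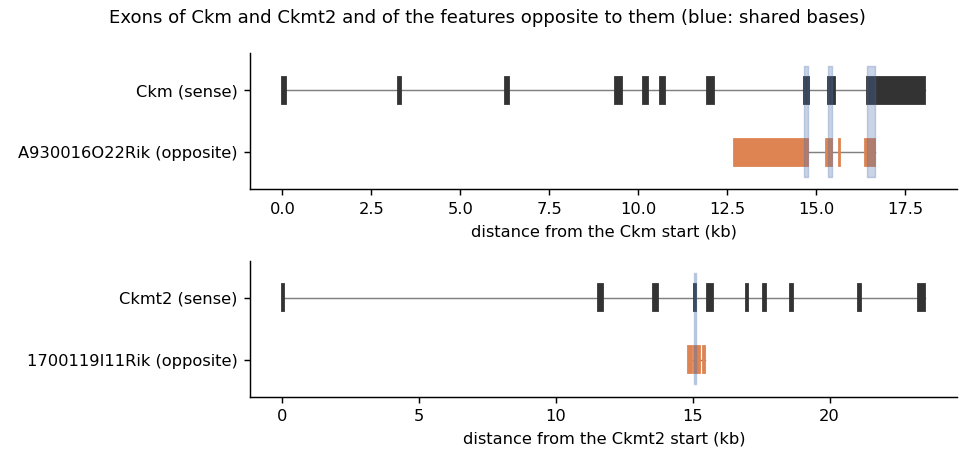
Exons of Ckm and Ckmt2 over all annotated transcripts (dark) and of the antisense features that face them (orange) by distance from the gene's start in kb, with shared bases in blue. The shared stretch is 451 bases at Ckm and 84 bases at Ckmt2.

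Few reads of each library were counted in gene features. Uniquely aligned reads numbered 9099973 to 26772603 per library, and 96.7% to 96.9% of them were assigned to no feature. Reads counted in gene features numbered 271463 to 814765 per library, 2.81% to 3.07% of the uniquely aligned reads, and the reading of mRNA held 140295 to 445228. Acly had 0 reads in each Acly_KD library and 1, 5 and 6 in the controls. Its pooled ratio of Acly_KD to control was 0, with an exact 95% counting interval up to 0.351, a limited check since these are own-feature reads. All 9 heart muscle cell markers listed (such as Myh6, Tnnt2 and Mb) had own-feature reads, 41228 in all. Markers of other cells had 363 (macrophage), 344 (smooth muscle and pericyte), 161 (endothelial) and 73 (fibroblast). Skeletal muscle, atrial and red blood cell markers had 170, 88 and 55. The 5 glial and neuronal markers had 0, which says little at this low yield. Csf1r held 325 of the macrophage reads and Tagln 141 of the smooth muscle reads. Csf1r has 873 exonic bases opposite to Hmgxb3, and Tagln has 1349 opposite to Pcsk7 and Gm48529. Of the 9 heart muscle markers, 4 have no opposite exon. The others are Pln (1785 opposite bases), Mb (476), Myh6 (114), Myl3 (95) and Myl2 (60). Egfl7 (122, endothelial) and Pdgfra (622, fibroblast) also have such bases. Reads at features with opposite exons can be mRNA of the facing genes. The atrial marker Nppa had 12426 reads in the reading of mRNA. Libraries also differed in reads given to Xist, the RNA of the inactive X chromosome, with 149 and 137 in control replicates 2 and 3 and 0 in the other 4 libraries. Floors and counting intervals cover counting error only.

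Ckm, the muscle kinase, read lower in Acly_KD by an amount that did not pass the test across genes. Its mRNA reading was 43294, 43026 and 49172 CPM (reads scaled to library size, with TMM factors) in Acly_KD, against 51733, 53740 and 49687 CPM in control. All 3 Acly_KD values lay under all 3 controls, with Acly_KD replicate 3 and control replicate 3 close together. Groups were apart in this way, in either direction, for 14.7% of the 1453 genes tested, with Acly_KD lower for 6.61% and higher for 8.12%. The means were 45164 ± 3473 CPM in Acly_KD and 51720 ± 2027 CPM in control (SD, n = 3 each). The log2 fold change was -0.20 (SE 0.09, 95% interval -0.37 to -0.02), with an unadjusted p of 0.0315 and an adjusted p of 0.471 in edgeR's quasi-likelihood test. An unadjusted p under 0.05 was reached by 8.6% of the genes. After adjustment 0.413% passed (0.206% higher and 0.206% lower), and neither creatine kinase was among them. On the Ckm CPM alone, an exact permutation test (two-sided) gave 0.1, which is its lowest possible p with 3 libraries a group.

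The size of the Ckm difference moved with the scale. Scaled as a feature among all deposited counts, the same reads (A930016O22Rik) stood at 23723 ± 636 CPM in Acly_KD and 26690 ± 616 CPM in control, a log2 fold change of -0.17 with a 95% interval from -0.41 to 0.07 (adjusted p = 0.906 in edgeR). Scaled to all uniquely aligned reads instead, Ckm stood at 648, 600 and 745 CPM in Acly_KD, against 799, 864 and 743 CPM in control, and on this scale the groups overlapped (exact permutation p = 0.2). The edgeR fit on that scale gave a log2 fold change of -0.27 (SE 0.09, unadjusted p = 0.00799, adjusted p = 0.258), larger than with TMM. The median over all genes tested moved down as well, from 0.005 with TMM to -0.073 on that scale. A larger difference of Ckm relative to the other genes was thus not shown. Leaving out any library kept the value below 0, from -0.26 without Acly_KD replicate 3 to -0.16 without Acly_KD replicate 1 or 2.

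Ckmt2, the mitochondrial kinase at the other end of the shuttle, showed no such separation. It read 17052, 15863 and 16192 CPM in Acly_KD, against 19172, 16338 and 14845 CPM in control. The Acly_KD values lay within the range of the controls. The means were 16369 ± 614 and 16785 ± 2198 CPM (SD, n = 3 each), with a log2 fold change of -0.04 and a 95% interval from -0.25 to 0.18 (adjusted p = 0.939 in edgeR). Among all deposited counts the same reads (1700119I11Rik) had an interval from -0.28 to 0.27 (adjusted p = 0.992 in edgeR). The interval does not show that the gene was unaffected. The value turned to 0.07 without control replicate 1 and to 0.01 with library totals as the scale. With a term for the libraries that held Xist reads it was -0.23. That term leaves control replicate 1 as the only control set against Acly_KD.

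Set against each other within a library, the kinases gave 0.394, 0.369 and 0.329 Ckmt2 reads per Ckm read in Acly_KD, against 0.371, 0.304 and 0.299 in control. The ratio was 0.364 ± 0.0325 in Acly_KD and 0.324 ± 0.0400 in control (SD, n = 3 each). The groups overlapped, since control replicate 1 lay at the level of Acly_KD replicate 2 (two-sided exact permutation p = 0.3). A different response of Ckm and Ckmt2 was thus not shown.

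**Figure D2:**
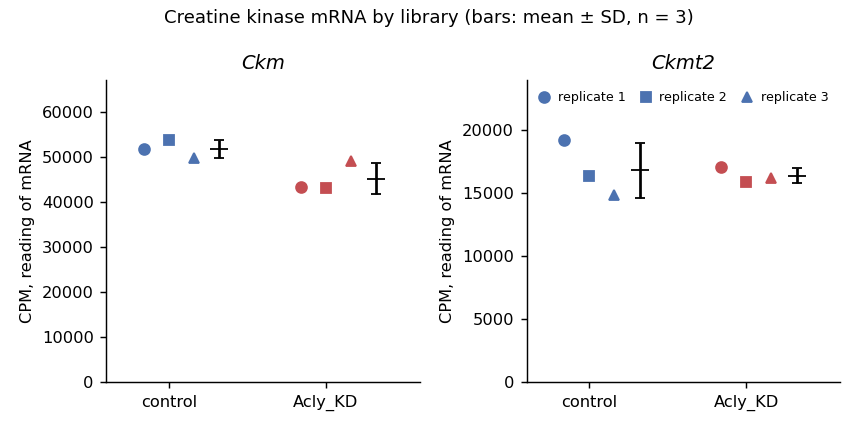
CPM of Ckm and Ckmt2 in the reading of mRNA, by group, with each library as a point (circle, square and triangle for replicates 1 to 3) and the mean ± SD (n = 3) as a bar, on axes from 0. For Ckm the highest Acly_KD library (49172 CPM) lies just under the lowest control (49687 CPM), and for Ckmt2 the groups overlap.

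The genes whose pattern over the 6 libraries was most like that of Ckm were sought among 886 genes with a mean of at least 100 CPM, by Pearson correlation of log2 CPM. They were Ndufb2 (r = 0.99), a subunit of respiratory complex I, Tapbp (0.98), Fitm2 (0.98), a lipid droplet protein, Mrps30 (0.97), a mitochondrial ribosome protein, and Aldh7a1 (0.96). Ckmt2 came at rank 326, with r = 0.17. These correlations describe 6 libraries that also differ in group and depth. None of the 5 genes passed the test, with log2 fold changes from -0.64 for Ndufb2 (SE 0.24) to -0.34 for Mrps30 (SE 0.20). Tapbp, Fitm2 and Aldh7a1 had groups that did not overlap, all lower in Acly_KD, which the choice of genes like Ckm favours. Without Acly_KD replicate 3, Ndufb2 (-0.998) and Fitm2 (-0.69) passed in edgeR, with adjusted p of 0.000797 and 0.0497, in a fit that called 8 genes higher and 12 lower of 1475. With no filter on low counts Ndufb2 passed at -0.64 (adjusted p = 0.00145 in edgeR), where 12 were called higher and 18 lower of 2765.

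The remaining 5 genes could be read only through their own features, along with the own features of Ckm and Ckmt2. Ckm, Ckmt2, Slc25a4 and Ak1 had enough reads to be tested and Ckb, Slc25a5 and Slc6a8 had not. Per kb of exon, own-feature reads over the 6 libraries averaged 110 ± 35.7 CPM for Ckm, 88.5 ± 42.5 for Slc25a4 and 52.2 ± 24.1 for Ckmt2 (SD, n = 6). The ranges of these 3 genes overlapped, so their order is not settled. Below them came Ak1 at 11.8 ± 5.37 CPM per kb, whose highest library (19.3) lay under the lowest of Ckmt2 (27.9). Slc25a5 (5.02 ± 2.50), Slc6a8 (2.03 ± 1.48) and Ckb (0.874 ± 0.726) followed, each overlapping its neighbour in the order. This is an order of own-feature reads and not of mRNA levels. In the reading of mRNA Ckm averaged 16630 CPM per kb over its 2913 exonic bases, of which 451 are shared with the opposite feature. That value uses the library sizes of the mRNA reading, so it is not on the scale of the own-feature values. The 5 genes with no opposite exon have no such value.

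Slc6a8, the plasma membrane creatine transporter (chromosome X, 73673150 to 73682502), received 1, 4 and 8 own-feature reads in Acly_KD, against 2, 21 and 7 in control. Scaled to CPM, these were 1.54, 9.77 and 9.999 against 7.28, 24.8 and 10.1. Acly_KD replicate 1 was the lowest and control replicate 2 the highest, and the groups overlapped. The pooled ratio of Acly_KD to control was 0.423, with a counting interval (exact, 95%) from 0.202 to 0.835. That interval ignores the spread between libraries: without control replicate 2 the ratio was 0.753, and without Acly_KD replicate 3 it was 0.285. Slc6a8 and Slc25a5 are X-linked, control replicate 2 is 1 of the 2 libraries with Xist reads, and the part of that difference in these values was not tested. Gatm and Gamt, the enzymes of creatine synthesis, had 0 and 4 reads in all 6 libraries together.

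Ckb, the brain form of cytosolic creatine kinase (chromosome 12, 111669361 to 111672338), had 0, 0 and 2 reads in Acly_KD, against 1, 4 and 3 in control. As CPM the Acly_KD libraries (0, 0 and 2.50) lay under the controls (3.64, 4.73 and 4.31). A library with 0 reads still allows 3, which is 4.61 CPM in Acly_KD replicate 1 and 7.33 CPM in Acly_KD replicate 2, so neither library can be set under the controls. The pooled ratio was 0.244 with a counting interval from 0.0252 to 1.22, and it was 0 without Acly_KD replicate 3. A difference was thus not detectable with so few counted reads. Ckmt1, the ubiquitous mitochondrial form, had 1 read in all.

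Slc25a4, the main ADP/ATP carrier of heart muscle (chromosome 8, 46206797 to 46211284, minus strand), had the largest difference among the tested own features of the 7 genes. It read 52.2, 137 and 285 CPM in Acly_KD, against 295, 291 and 190 CPM in control. Acly_KD replicates 1 and 2 lay under all controls and Acly_KD replicate 3 lay among them. The means were 158 ± 118 and 259 ± 59.6 CPM (SD, n = 3 each). The log2 fold change of -0.68 had an SE of 0.60 and a 95% interval from -2.19 to 0.84, and edgeR's adjusted p was 0.959. The call hung on Acly_KD replicate 3: without it the log2 fold change was -1.46 and passed (adjusted p = 0.0300 in edgeR), in a fit whose calls were 23 higher and 46 lower over all features. The value was -0.24 when Acly_KD replicate 1 was left out. Of the 2952 features tested as deposited with all libraries, 0% passed in edgeR or in DESeq2 and 6.1% (180) had an unadjusted p under 0.05 in edgeR. Groups were apart for 11.4% of them, 5.83% higher and 5.56% lower, and 54.4% had a log2 fold change below 0.

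Slc25a5, the carrier form found in many proliferating tissues (chromosome X, 36795651 to 36798807), had 5, 3 and 9 reads in Acly_KD, against 4, 5 and 2 in control. Its groups overlapped in CPM, at 7.68, 7.33 and 11.2 against 14.6, 5.92 and 2.88. The pooled ratio was 1.51, with a counting interval from 0.666 to 3.56, from 1.14 without control replicate 3 to 2.01 without control replicate 1. The genome holds processed copies of this gene, and how the counting split reads among them was not given in the sources used here.

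Ak1 (chromosome 2, 32621758 to 32635058) had 7, 9 and 40 own-feature reads in Acly_KD, against 11, 29 and 18 in control. In CPM the values were 10.7, 21.98 and 49.997 against 40.1, 34.3 and 25.9, so that Acly_KD held the lowest and the highest library. The log2 fold change was -0.20 with a 95% interval from -1.29 to 0.88 (adjusted p = 0.965 in edgeR), and without Acly_KD replicate 1 it was 0.22.

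The own features of the creatine kinases spread in the same way. Ckm read 134, 308 and 437 CPM in Acly_KD, against 386, 349 and 302 CPM in control, with a log2 fold change of -0.23 and a 95% interval from -1.14 to 0.69 (adjusted p = 0.965 in edgeR). Ckmt2 read 44.5, 41.5 and 129 CPM in Acly_KD, against 94.7, 102 and 54.6 CPM in control, with a log2 fold change of -0.17 and an interval from -1.13 to 0.79 (adjusted p = 0.966 in edgeR). Acly_KD replicate 3 was the highest library for both kinases and for Ak1. Without Acly_KD replicate 1 the value of Ckm was 0.13 and that of Ckmt2 was 0.11, while without Acly_KD replicate 3 they were -0.63 and -0.88.

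**Figure D3:**
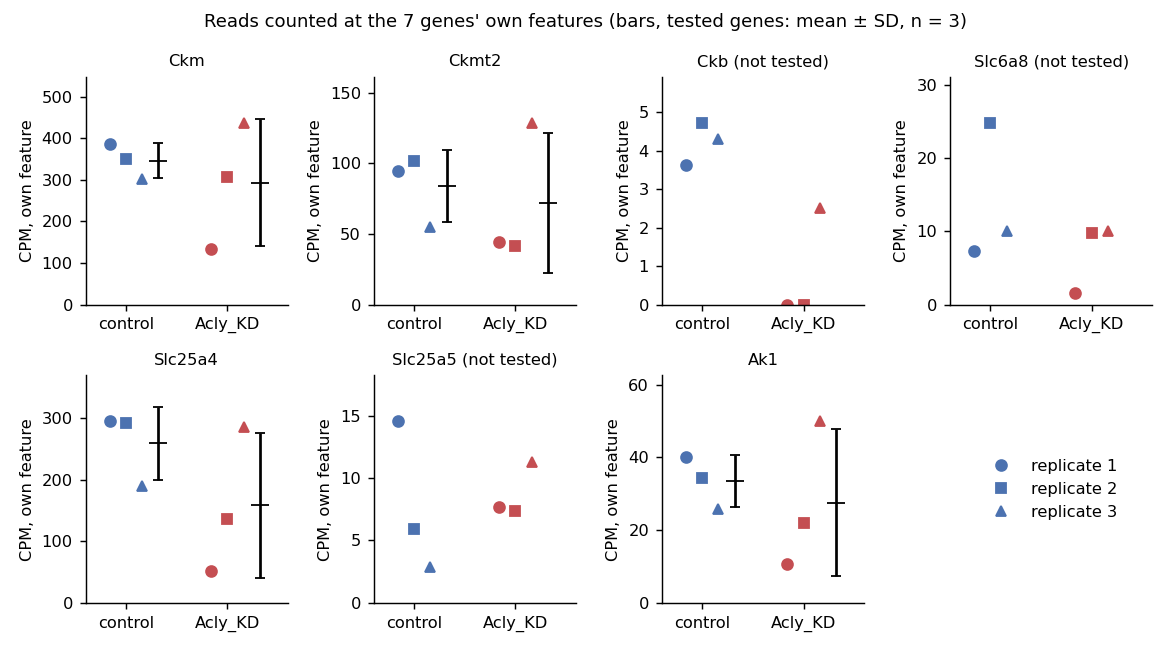
Own-feature CPM of the 7 genes by group, with each library as a point and the mean ± SD (n = 3) as a bar for the 4 tested genes, on axes from 0. Acly_KD replicate 1 is the lowest library for Ckm, Slc25a4, Slc6a8 and Ak1, and Acly_KD replicate 3 the highest for Ckm, Ckmt2 and Ak1.

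The yield of own-feature reads per mRNA read differed between libraries. For Ckm it was 0.561, 1.33 and 1.799 reads per 100 mRNA reads in Acly_KD, against 1.46, 1.27 and 1.15 in control. For Ckmt2 it was 0.475, 0.489 and 1.61 against 0.965, 1.22 and 0.698. Acly_KD replicate 1 had the lowest yield for both kinases and Acly_KD replicate 3 the highest. Over 117 genes with both values, whose own features held under 10% of their mRNA reads, the median yield relative to the mean of the libraries was 0.558, 0.830 and 1.29 in Acly_KD and 1.14, 1.16 and 0.887 in control. The 9 heart muscle cell markers summed to 4240, 8633 and 15247 own-feature CPM in Acly_KD and to between 11041 and 14357 CPM in the controls. All 9 had a log2 fold change below 0, as had 54.4% of all features tested as deposited. Of the features with no opposite exon, to which 4 of the 9 belong, 72.9% lay below 0. In the reading of mRNA only Myl2 of the 9 could be tested, with a log2 fold change of 0.11 (SE 0.14). The 6 endothelial markers, all with reads, summed to between 19.5 and 76.2 CPM in Acly_KD and between 27.3 and 56.8 CPM in control. The part of these differences in the values of the 7 genes was not tested. The term that follows cannot test it, since the yield was computed from own-feature reads of the same libraries. Ckm and Ckmt2 also meet the rule for the 117 genes, so a move of own-feature values with the term can be in part built in. With a term for the yield, added after the data were seen, the own-feature log2 fold change was -0.36 for Slc25a4, 0.04 for Ckm, 0.15 for Ckmt2 and 0.08 for Ak1. In the reading of mRNA the same term gave -0.14 for Ckm.

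**Figure D4:**
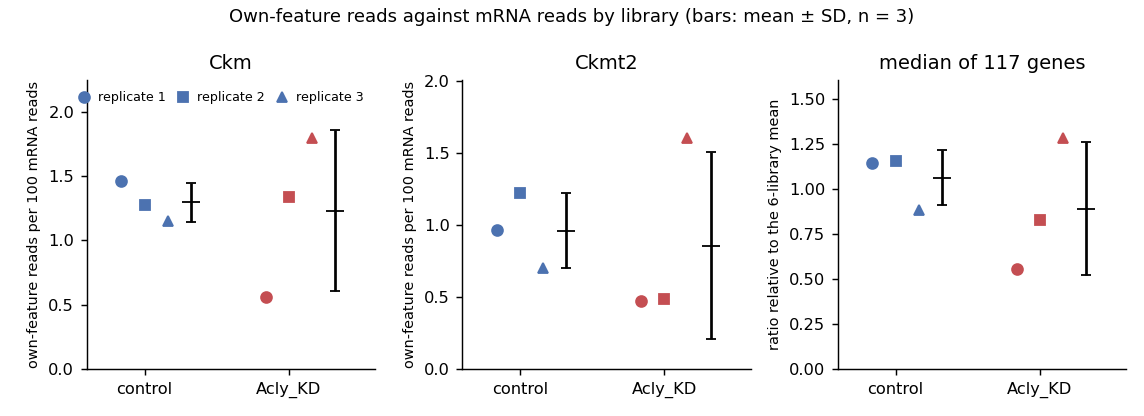
Own-feature reads per 100 mRNA reads of Ckm and Ckmt2, and the median of this ratio over 117 genes relative to the mean of the 6 libraries, by group, with each library as a point and the mean ± SD (n = 3) as a bar. Acly_KD replicate 1 is lowest and Acly_KD replicate 3 highest in all 3 panels.

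As ratios within a library, Slc25a4 had 0.391, 0.444 and 0.651 own-feature reads per Ckm read in Acly_KD, against 0.764, 0.834 and 0.629 in control. Acly_KD replicate 3 lay above control replicate 3 and the groups overlapped (0.496 ± 0.138 against 0.742 ± 0.104, SD, n = 3 each, two-sided exact permutation p = 0.2). For Ak1 the ratio was 0.0887 ± 0.0226 in Acly_KD and 0.0959 ± 0.00926 in control, and for Ckmt2 it was 0.254 ± 0.105 and 0.239 ± 0.0555 (exact permutation p = 0.7 and 0.8). With the ratio of the mRNA reading, 4 such exact permutation tests were made, and their Benjamini-Hochberg adjusted p was 0.6 for the first 2 by size of p and 0.8 for the others.

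With the 7 genes among them, 9 lists of energy transfer genes held 68 genes, of which 9 could be tested in the reading of mRNA and 25 through their own features. In the reading of mRNA 0 of 9 passed, 4 lay above 0 and 5 below, and the median log2 fold change was -0.04, against 0.01 and 49.5% below 0 over all genes tested. Groups did not overlap for 3 of the 9, all lower in Acly_KD, against 14.7% of all genes in either direction and 6.61% lower. These were Ckm, Prkag1 and Atp5o. Through own features 0 of 25 passed, 2 lay above 0 and 23 below, against 54.4% below 0 over all features tested, with a median of -0.28 against -0.04. The groups of 2 of the 25 (Ak3 and Stk11) did not overlap, which is no larger a share than the 11.4% of all features.

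AMP-activated protein kinase senses the AMP that adenylate kinase makes. Its regulatory subunit Prkag1 read 3229 ± 95.2 CPM in Acly_KD and 3582 ± 55.6 CPM in control (SD, n = 3 each). Its log2 fold change was -0.15 with an SE of 0.11 (edgeR adjusted p = 0.734), and Prkag2 had a log2 fold change of 0.15 (SE 0.29). Stk11, an upstream kinase of AMPK, read 36.1 ± 11.9 and 68.9 ± 5.14 CPM at its own feature. Its groups were apart and its log2 fold change was -0.96 with an SE of 0.35 (edgeR adjusted p = 0.639). Stk11 has 232 exonic bases opposite to Cbarp, so its reads can be Cbarp mRNA. Ampd3, an AMP deaminase, had a log2 fold change of 0.26 (SE 0.19) in the reading of mRNA, and Adssl1, the muscle adenylosuccinate synthase, -0.28 (SE 0.58) at its own feature.

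ATP synthase, which supplies the ATP that the carriers export, was read as mRNA through 3 subunits or regulators. Atp5o, a stalk subunit, read 3373 ± 237 CPM in Acly_KD and 3925 ± 237 CPM in control (SD, n = 3 each), and its log2 fold change was -0.22 with an SE of 0.12 (edgeR adjusted p = 0.581). Atpif1, the inhibitor of the enzyme, had a log2 fold change of 0.03 (SE 0.13). Atp5j had the largest difference of the 3, at 332 ± 170 CPM in Acly_KD and 541 ± 53.5 CPM in control, and its groups overlapped. Its log2 fold change was -0.68 with an SE of 0.31 and a 95% interval from -1.40 to 0.04 (edgeR adjusted p = 0.581). It shares 397 exonic bases with Gabpa on the other strand. Through own features, 13 of 14 genes of this list lay below 0, with a median of -0.37, and 0 passed in edgeR. Below 0 were 54.4% of all features tested, and 72.9% (median -0.28) of those with no opposite exon, to which 8 of the 14 belong. Atp5f1 and Atp5b, the most abundant of these, had values of -0.04 (SE 0.21) and -0.53 (SE 0.58). Atp5f1 has 540 exonic bases opposite to Wdr77 and Gm42890.

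The mitochondrial phosphate carrier Slc25a3 (-0.22, SE 0.49), the outer membrane channel Vdac1 (-0.57, SE 0.58), the nucleoside diphosphate kinases Nme1 (-0.10, SE 0.26) and Nme2 (0.42, SE 0.49) and the mitochondrial adenylate kinase Ak3 (-0.18, SE 0.19) were measured at their own features. Slc25a23, an ATP-Mg and phosphate carrier, had 0.22 (SE 0.29) in the reading of mRNA. Ak3 has 713 exonic bases opposite to Cdc37l1 and 1700018L02Rik, and its groups were apart, lower in Acly_KD. Among the 15 tested own features of the lists that have no opposite exon, 14 lay below 0 with a median of -0.33. Over all 731 such features tested, 72.9% lay below 0 and the median was -0.28. The medians thus lay near each other, while the share below 0 was larger in the lists, a difference that was not tested.

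**Figure D5:**
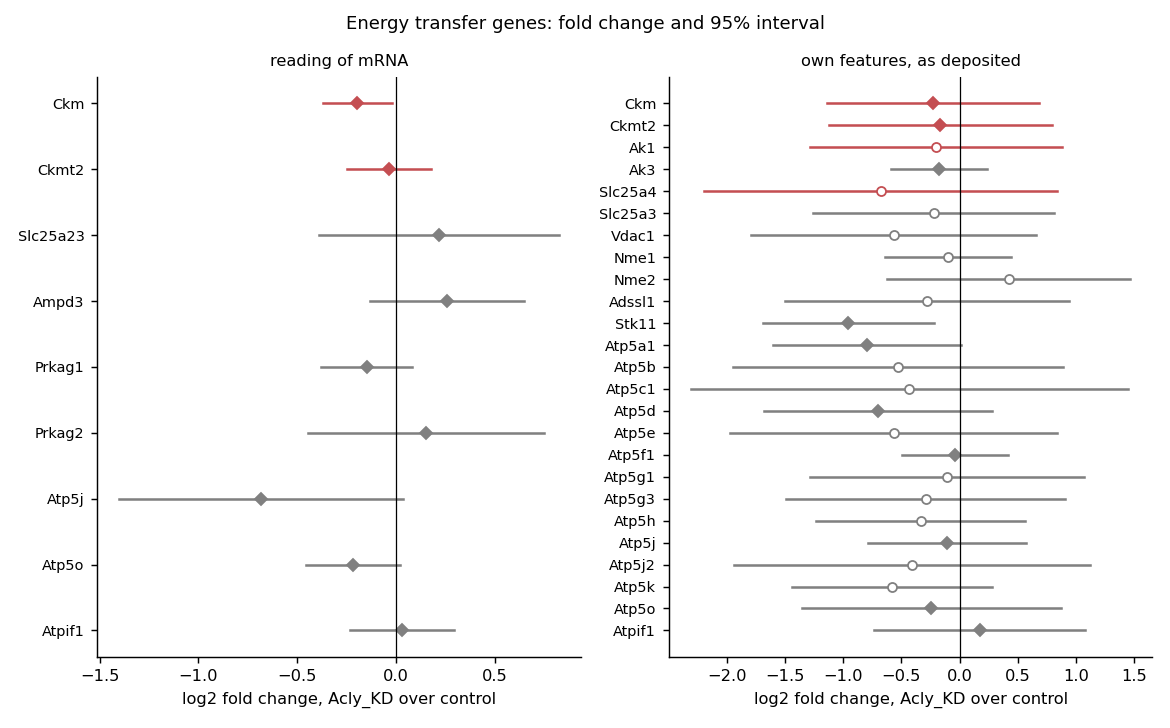
Log2 fold change of Acly_KD over control (points) with its 95% interval (lines) for the energy transfer genes tested in the reading of mRNA (left) and at their own features (right); the 7 genes are red, and open circles are features with no opposite exon and diamonds those with one. The interval of Ckm in the reading of mRNA (-0.37 to -0.02) lies under 0, while the own-feature interval of Slc25a4 (-2.19 to 0.84) crosses it.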

How the data were processed

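Poly-A RNA from 6 libraries of isolated mouse heart muscle cells was sequenced from a kit that keeps strand, per the labels' protocols. FastQC, TopHat2, SAMtools, HTSeq, DESeq2 and mm10 are named without versions or roles, per the submitters' processing notes. The deposited values are whole-number counts per gene feature made by the authors, without normalization. Rows that name no gene held 97.4% to 97.7% of the entries of a library and stayed out of library sizes and tests. Of 46078 features, 45229 matched GENCODE M21 (mm10) by identifier.

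In the reading of mRNA, counts of a nuclear feature were moved to the gene facing it. That gene had to hold 80% or more of the exonic overlap on the other strand, share 50 bases or more, and have fewer counts of its own or no row. Sums were made over 2973 genes. The tests used edgeR 4.0.16 under R 4.3.3, with TMM, low counts filtered by filterByExpr (minimum 10), robust quasi-likelihood fitting and Benjamini-Hochberg adjustment over all features tested (threshold 0.05). Intervals at 95% use the standard error from the fold change and test statistic. Libraries of a group differed beyond sampling noise (chi-square per degree of freedom 3.43 to 10.1). The scripts were tested on simulated counts. Of genes given a 1.5-fold change, 13.4% passed in the reading of mRNA and 5.97% as deposited. For a 2-fold change 58.2% and 34.3% passed.

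The 7 genes, the 9 lists and the rules were chosen with earlier results of these data known. Named were Acly, the 7 genes and the features opposite to them, the passing members of each list or else its 2 most abundant with a mean of at least 5 CPM, and the 5 genes most like Ckm. Gatm, Gamt and Ckmt1 were named after their values were seen. Alternatives were DESeq2 1.42.0 and its size factors, library totals, 2 other filters, a replicate block, all uniquely aligned reads as library size, 2 other forms of the mRNA reading, each library left out and 2 terms added after the data were seen (for the libraries with Xist reads, and for the ratio of own-feature to mRNA reads). Whether replicate numbers pair the libraries was not given in the sources used here, and the main tests took them as unpaired. Of the marker lists, atrial, fibroblast, macrophage, smooth muscle, red blood cell and skeletal muscle genes had summed own-feature values that overlapped between groups.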

Additional observations from a re-analysis of the deposited data

How the results depend on the processing

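In the reading of mRNA 3 genes passed higher and 3 lower. The counts higher and lower were 1 and 3 with the DESeq2 test and 12 and 18 with no filter. A minimum count of 30 gave 0 and 0 (50 and 48 at an unadjusted p under 0.05 in edgeR). The counts were 0 and 2 with libraries scaled to all uniquely aligned reads and 1 and 2 with at least 200 shared bases. The term for the ratio of own-feature to mRNA reads gave 0 and 1. With the term for libraries with Xist reads only control replicate 1 is compared with Acly_KD, so no counts are given. Leaving out 1 library gave 0 to 8 higher and 1 to 12 lower, the most without Acly_KD replicate 3. As deposited, where 0 passed, there were 2 higher and 1 lower with no filter and 2 and 1 with the ratio term, and 0 to 23 higher and 0 to 46 lower with 1 library left out. The replicate block gave 5 higher and 7 lower in the reading of mRNA and 0 as deposited in edgeR (61 and 90 unadjusted). Same-numbered libraries did not deviate together (correlations -0.01, -0.01 and -0.05 in the reading of mRNA and -0.06, -0.02 and -0.18 as deposited). Pairs that share little would look the same, so the correlations cannot show whether the libraries were paired. Ckm in the reading of mRNA lay below 0 in 17 of 17 settings and passed in 0, with an adjusted p from 0.153 to 0.943 (edgeR or DESeq2). Ckmt2 in that reading was 0.0088 with library totals and -0.11 to 0.068 with 1 library left out. With the ratio term, own-feature values were 0.037 for Ckm, 0.15 for Ckmt2, 0.083 for Ak1, 0.080 for Slc25a3, 0.017 for Adssl1 and 0.029 for Atp5f1. With no filter, 1700119I11Rik was 0.11, Nme1 0.013 and Atp5f1 0.061, and 1700119I11Rik was 0.0346 with DESeq2 size factors and 0.0348 with the DESeq2 test. Slc25a23 was -0.16 with the Xist term, where control replicate 1 is the only control compared. Atpif1 was -0.049 when scaled to all uniquely aligned reads. With 1 library left out the ranges were -0.63 to 0.13 for the own feature of Ckm, -0.88 to 0.11 for that of Ckmt2, -0.067 to 0.15 for 1700119I11Rik, -1.46 to -0.24 for Slc25a4, -1.0004 to 0.22 for Ak1, -0.046 to 0.36 for Slc25a23, -0.039 to 0.12 for Atpif1, -0.79 to 0.12 for Slc25a3, -0.25 to 0.077 for Nme1, -1.01 to 0.14 for Adssl1 and -0.19 to 0.16 for Atp5f1. The median over all features moved too: as deposited from -0.04 to 0.05 with no filter, and in the reading of mRNA from 0.01 to 0.06 with library totals. The cause of the changes of single genes was not tested. Ckmt2 has no value with 200 shared bases and Ak1 none with a minimum count of 30.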
